A study of Oryctolagus cuniculus with 6 samples.

Results

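The miR-181 family was followed in rabbit ear scars, as the rows of the deposited table whose name without copy number and arm was miR-181a, miR-181b, miR-181c or miR-181d. This gave 10 of the 467 mature miRNAs in the table. They come from 6 annotated genes and comprise 4 rows of the 5p arm and 6 rows of the 3p arm, counting the separate rows of miR-181a-2-3p and miR-181b-2-3p. Rows carry the rabbit prefix in the table (ocu-miR-181a-5p, ocu-miR-181a-3p, ocu-miR-181c-5p and ocu-miR-181c-3p, for example), which is left out below. Members were chosen by name, but the family itself was selected on measured values of these libraries, among them the low CPM of miR-181c-3p after treatment. Differences between the groups are therefore given as a description, without a p-value, and nothing is supported with them.

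The scars were hypertrophic scars of female New Zealand White rabbits, sampled 21 days after full-thickness wounding of the ventral ear surface. One group received saline and the other ADSC-Exos, vesicles secreted by stem cells of adipose tissue, at a dose of 100 µg per 2 ml. The design text limits the applications to the first 3 days, while the labels speak of 21 days of treatment. Each group has 3 small RNA libraries and was assigned 3 rabbits, but no source states that each library is a separate animal, and unwounded skin and the exosomes themselves are not among the samples. Errors below therefore measure the spread between these libraries.

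A miRNA gene is transcribed into a hairpin, from which a 5p and a 3p strand are cut, and usually the strand with the looser 5′ end is loaded into Argonaute while its partner is degraded. The 5p strands of the family share a seed, the stretch that pairs with target transcripts, and so are expected to bind overlapping targets. The 3p strands have other seeds. miR-181a is best known from mouse lymphocytes, where it raises the sensitivity of developing T cells to antigen by repressing phosphatases, and it also rises in differentiating mouse myoblasts.

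RefSeq places the 6 genes in 3 pairs in its annotation of assembly mOryCun1.1, which is used here for gene order only. MIR181A-1 and MIR181B-1 lie side by side, with PTPRC, the gene of the leukocyte phosphatase CD45, as the protein-coding gene next to them on one side. MIR181A-2 and MIR181B-2 lie within the span of NR6A1, a nuclear receptor gene. MIR181C and MIR181D lie within the span of NANOS3, a gene of germ cells, with MIR24-2 nearby.

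Values are CPM as the authors deposited them, that is, counts of a miRNA scaled so that all libraries have the same total. From the spacing of the low values, the saline libraries held about 3246700, 2873750 and 3911900 miRNA reads, and ADSC-Exos 1, 2 and 3 about 2260600, 3704750 and 5102400. In ADSC-Exos 3 a total of 4897900 explained the spacing almost as well. A single read was thus worth 0.196 to 0.442 CPM. Read numbers and counting intervals given below rest on these totals and cover counting error only.

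miR-181a-5p, the principal strand of both miR-181a genes, was the most abundant member. Saline 1, 2 and 3 read 406.3, 231 and 222.1 CPM, and ADSC-Exos 1, 2 and 3 read 340.6, 246.4 and 275.8 CPM. The groups overlapped, and saline 1 was the highest library. Its mean was 286 ± 104 CPM in saline and 288 ± 48.2 CPM after ADSC-Exos (SD, n = 3 each). By mean level it held place 86 among the 467 miRNAs.

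miR-181b-5p, which differs from miR-181a-5p outside the seed, read 151.5, 65.8 and 66.2 CPM in the saline libraries. After ADSC-Exos the same strand read 91.6, 78 and 96.4 CPM. All 3 treated libraries lay between the saline extremes, and saline 1 was again the highest. miR-181d-5p ordered the libraries of each group in the same way, with 54.2, 21.9 and 28.1 CPM in saline and 30.1, 21.6 and 31.9 CPM after ADSC-Exos.

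miR-181c-5p, the least abundant of the 4 strands with the family seed, read 20.6, 14.3 and 13.8 CPM in the saline libraries. In ADSC-Exos 1, 2 and 3 its level was 18.6, 13 and 5.7 CPM. The groups overlapped, and ADSC-Exos 3 was low, at an estimated 29 reads and with a counting interval of 3.81 to 8.16 CPM that lay below those of all the other libraries.

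Among the strands of the other arm, miR-181a-3p, the partner strand of miR-181a-5p, read 78.5, 37.9 and 34 CPM in saline 1, 2 and 3 against 59.7, 25.6 and 23.9 CPM in ADSC-Exos 1, 2 and 3. ADSC-Exos 2 and 3 were below every saline library, whereas ADSC-Exos 1 exceeded saline 2 and 3. miR-181b-3p had the same split at a lower level, with 7.1, 9 and 8.7 CPM in saline and 13.7, 3.8 and 2.2 CPM after ADSC-Exos. Here ADSC-Exos 1 was the highest and ADSC-Exos 2 and 3 the lowest of the 6 libraries.

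miR-181c-3p, the partner strand of miR-181c-5p, was the single member whose groups did not overlap. It read 29.3, 23.3 and 20.5 CPM in saline 1, 2 and 3 and 17.7, 6.7 and 5.7 CPM in ADSC-Exos 1, 2 and 3. ADSC-Exos 2 and 3 were well below saline, and ADSC-Exos 1 was close to it. The estimated read numbers were 95, 67 and 80 in saline and 40, 25 and 29 after treatment. The 95% Poisson interval of ADSC-Exos 1, 12.6 to 24.1 CPM, overlapped that of saline 3, 16.2 to 25.5 CPM, so the gap that separates the groups was not detectable at this depth. The intervals of ADSC-Exos 2 and 3 reached up to 9.96 and 8.16 CPM and overlapped none of saline.

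**Figure D1:**
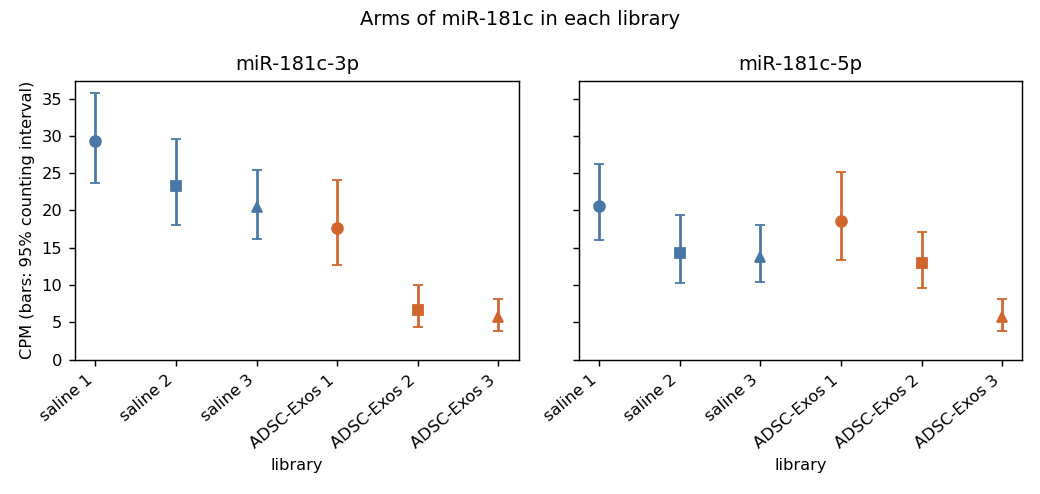
Level of both arms of miR-181c in CPM (y axis) in each of the 6 libraries (x axis), with saline in blue and ADSC-Exos in orange and bars for the 95% Poisson interval of the estimated reads. For miR-181c-3p the interval of ADSC-Exos 1 (12.6 to 24.1 CPM) meets that of saline 3, while ADSC-Exos 2 and 3 (6.7 and 5.7 CPM) lie lower; for miR-181c-5p ADSC-Exos 3 stands lowest, at 5.7 CPM.

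The remaining 3 rows were low throughout. miR-181a-2-3p, the strand of the second miR-181a gene, read 16, 6.6 and 4.6 CPM in saline against 6.2, 8.9 and 6.1 CPM after ADSC-Exos, with overlap. miR-181b-2-3p reached 0.3, 0 and 2.6 CPM in saline and 4.9, 2.2 and 1 CPM in ADSC-Exos 1, 2 and 3. A count of 0 in saline 2 allows up to 1.04 CPM, the worth of 3 reads. miR-181d-3p read 0.6, 1.4 and 1 CPM in the saline libraries and 0.8 CPM in ADSC-Exos 2. It was listed at 0 in ADSC-Exos 1 and 3, which allows up to 1.33 and 0.588 CPM.

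Of the 9 steps in the order of mean levels, 3 held in all 6 libraries and exceeded their own spread. miR-181a-5p exceeded miR-181b-5p by 1.66 ± 0.18 on the log2(CPM + 1) scale (SD, n = 6 libraries), which was the narrowest spread of any step. miR-181b-5p exceeded miR-181a-3p by 1.13 ± 0.52, and miR-181b-3p exceeded miR-181b-2-3p by 1.66 ± 1.10 on the same scale. The other 6 neighbouring pairs changed places in at least 1 library. miR-181c-3p and miR-181c-5p had the smallest mean difference, 0.13 ± 0.57, with the 3p strand higher in 3 of 6 libraries. Levels of different miRNAs also depend on how well each sequence is ligated to the adaptors, which was not measured.

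**Figure D2:**
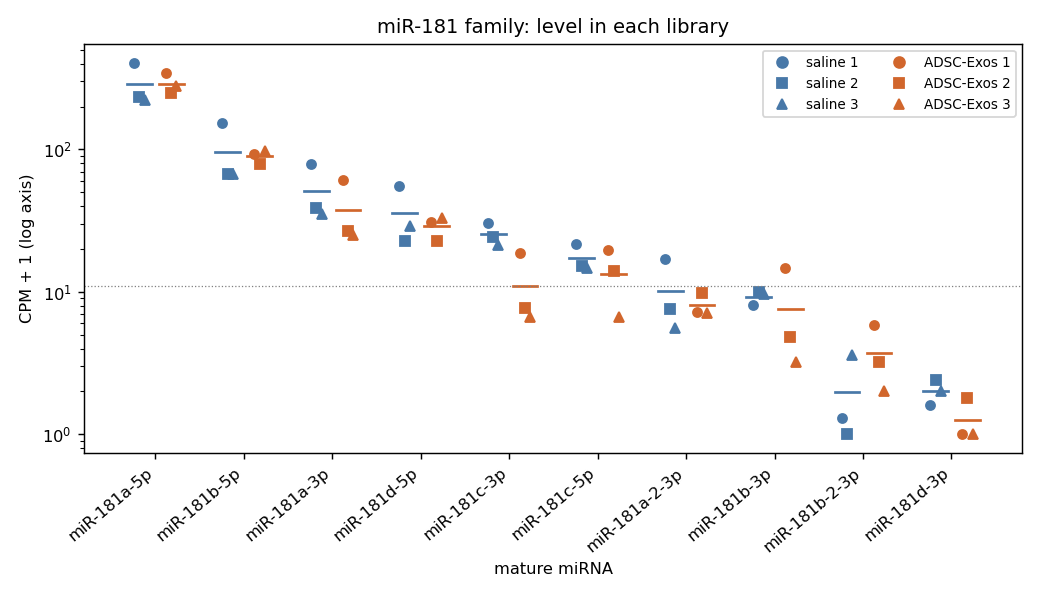
Level of the 10 family members as CPM + 1 on a log axis (y axis), ordered by mean level (x axis). Points are single libraries, horizontal bars group means and the dotted line the level filter of 10 CPM. miR-181a-5p is highest in every library, and miR-181c-3p is the member whose saline and ADSC-Exos points do not overlap.

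Summed over its 10 rows, the family took 764.4, 411.2 and 401.6 CPM in saline and 583.1, 407 and 448.7 CPM after ADSC-Exos. The groups overlapped, with saline 1 highest, and the means were 526 ± 207 and 479.6 ± 92.0 CPM (SD, n = 3 each). miR-181a-5p made up 53.2% to 61.5% of the family in each library. The 3p strands together made up 17.2%, 19.0% and 17.8% of the family in saline 1, 2 and 3. In ADSC-Exos 1 they made up 17.5%, inside the saline range, and in ADSC-Exos 2 and 3 11.8% and 8.67%.

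The exosome comparison asks how miRNA levels of the scar differ after treatment. Over the 224 miRNAs whose mean level reached 10 CPM, limma called 0 at an adjusted p of 0.05 (0% of those tested, with 8 at an unadjusted p under 0.05), and so none of the 6 family members that passed this level filter. Without ADSC-Exos 1 it called 4 and without saline 3 it called 1, again none of them in the family. The 4 members under the filter, miR-181a-2-3p, miR-181b-3p, miR-181b-2-3p and miR-181d-3p, were not tested there. Among the 6, miR-181c-3p was the only member whose groups did not overlap, against 3.57% of all miRNAs tested that did not overlap in the same direction and 1.34% in the other. Since the family was chosen with this contrast known, nothing is read from that count.

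On the log2(CPM + 1) scale, miR-181c-3p had the lowest difference of the family, -1.35 ± 0.48 (SE, 95% interval -2.43 to -0.27), ADSC-Exos minus saline. It averaged 24.4 CPM in saline and 10.03 CPM after treatment. From the lowest upward this was place 6 of the 224. The pair just below it were miR-144-5p and miR-486-5p, miRNAs of red blood cells, at -1.39 ± 0.48 and -1.39 ± 0.51 (SE). The pair just above were miR-744-5p, at -0.88 ± 0.65, and miR-150-5p, a miRNA of mature lymphocytes, at -0.86 ± 0.44 (SE).

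The differences of the other 5 tested members were nearer to 0. miR-181a-3p had a log2 difference of -0.48 (95% interval -1.55 to 0.60) and miR-181c-5p one of -0.47 (-1.56 to 0.62). miR-181d-5p was at -0.22 (-1.17 to 0.72) on this scale. miR-181a-5p and miR-181b-5p were at 0.05 (-0.72 to 0.82) and 0.02 (-0.86 to 0.90). The last 3 of these members took either sign when single libraries were left out. miR-181a-3p was at -0.11 without saline 1 and at -0.89 without ADSC-Exos 1, and miR-181c-5p at -0.035 without ADSC-Exos 3 and at -0.81 without ADSC-Exos 1.

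**Figure D3:**
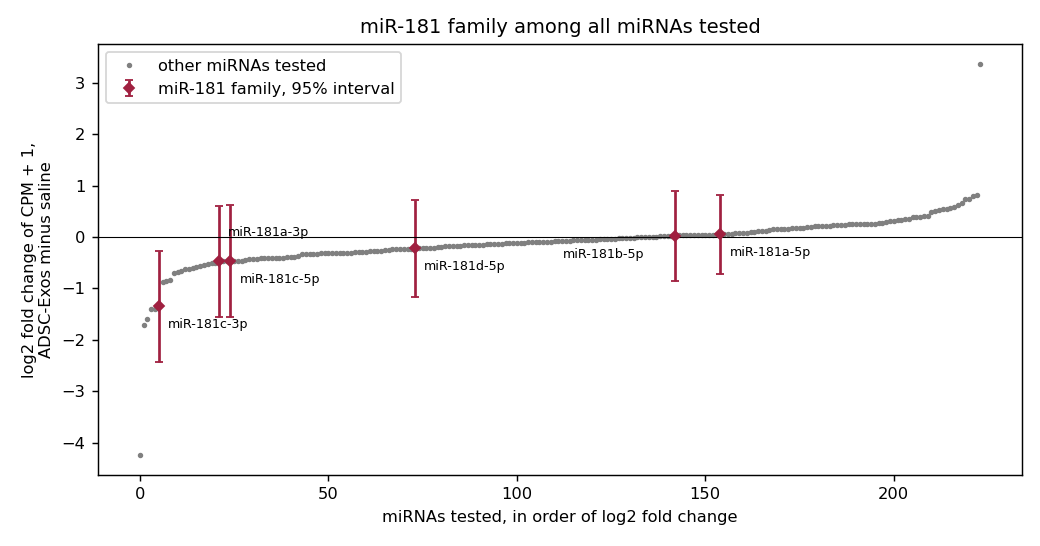
Log2 difference of CPM + 1 between ADSC-Exos and saline (y axis) for the 224 miRNAs tested, in order (x axis). Red diamonds are the 6 tested members of the miR-181 family with their 95% interval, and grey points the other miRNAs. miR-181c-3p lies at place 6 from the lowest, at -1.35, and the 5p strands of miR-181a and miR-181b lie close to 0.

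The plain ratio of both arms of a hairpin within a library does not depend on the scaling of that library. For miR-181c the ratio of the 5p to the 3p strand was 0.703, 0.614 and 0.673 in saline 1, 2 and 3. In ADSC-Exos 1, 2 and 3 it was 1.05, 1.94 and 1. The 3p strand was thus the more abundant in each saline library and in no ADSC-Exos library. Adding 1 CPM to each strand draws ratios towards 1, most where levels are low, and leaves a small dependence on scaling. The mean log2 ratio was then -0.56 ± 0.09 in saline and 0.31 ± 0.48 after ADSC-Exos (SD, n = 3 each), a difference of 0.87. With 0.1 CPM added the difference was 0.93. miR-181c was the only 1 of the 57 hairpins with both arms tested (1.75%) whose ratio was higher without overlap. In the other direction there was also 1, let-7b, with a difference of -0.995. Nothing is read from these counts either, as the same libraries and contrast were used in choosing the family.

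As a share of its reads, the 3p strand of miR-181c made up 58.6%, 62.0% and 59.7% in the saline libraries, with exact 95% binomial intervals that together ran from 50.7% to 71.2%. In ADSC-Exos 2 it made up 34.2% (23.5% to 46.3%), below the intervals of all saline libraries. In ADSC-Exos 1 and 3 the share was 48.8% (37.6% to 60.1%) and 50% (36.6% to 63.4%), which overlapped those of saline. ADSC-Exos 3 differed from ADSC-Exos 2 in that both of its strands were low.

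For miR-181a the ratio of the 5p strand to the 3p strand was 5.18, 6.09 and 6.53 in saline. In ADSC-Exos 1 it was 5.71, inside the saline range, and in ADSC-Exos 2 and 3 it was 9.63 and 11.5. The share of the 3p strand was 14.9% (12.7% to 17.4%) in ADSC-Exos 1 against 9.42% (7.69% to 11.4%) and 7.98% (6.67% to 9.45%) in ADSC-Exos 2 and 3. The interval of ADSC-Exos 3 overlapped none of saline, whose lowest library, saline 3, was at 13.3% (11.2% to 15.5%). Since miR-181a-5p comes from both genes, the ratio was also formed with the 3p strands of both genes summed, and it was then 4.30, 5.19 and 5.75 in saline and 5.17, 7.14 and 9.19 in ADSC-Exos 1, 2 and 3.

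miR-181b had a less uniform baseline. Its 5p to 3p ratio was 21.3, 7.31 and 7.61 in saline and 6.69, 20.5 and 43.8 after ADSC-Exos. Saline 1 stood with ADSC-Exos 2, so the groups overlapped, and the 3p strand rested on 11 to 34 estimated reads per library. For miR-181d no ratio is given, because its 3p strand reached at most 4 estimated reads.

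**Figure D4:**
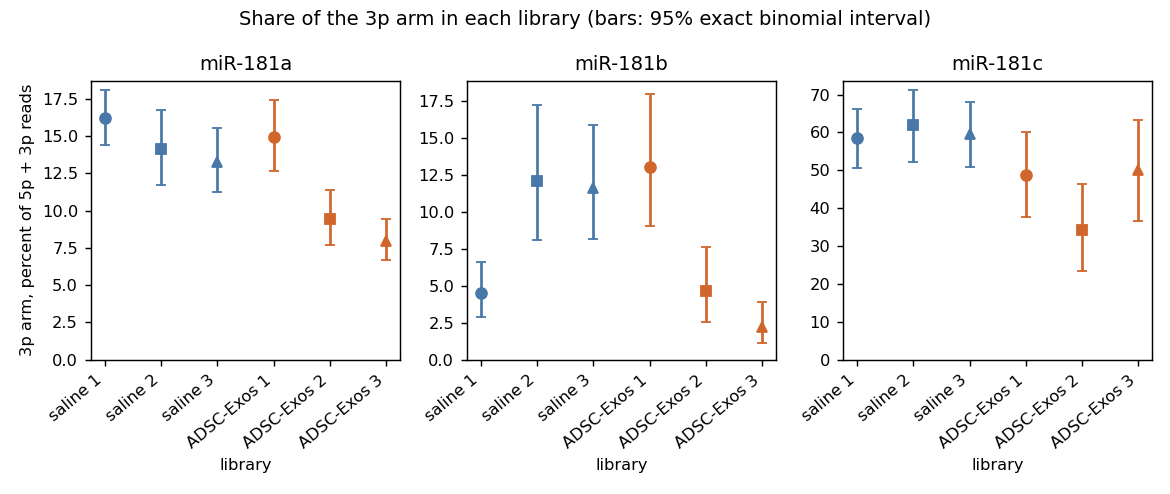
Share of the 3p strand in the reads of both strands, in percent (y axis, a separate scale in each panel), for miR-181a, miR-181b and miR-181c in each of the 6 libraries (x axis), with exact 95% binomial intervals. ADSC-Exos 2 and 3 are low for miR-181a and miR-181b (9.42% and 7.98% for miR-181a), whereas saline 1 is also low for miR-181b (4.47%). ADSC-Exos 1 lies within the saline range for miR-181a. For miR-181b it is at 13.0%, just above the highest saline library, saline 2 at 12.1%, and their intervals overlap.

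Among the 57 hairpins the difference in log2 ratio between the groups, with 1 CPM added to each strand, had a median of -0.083 and was above 0 in 27. miR-181c was at place 2 from the highest with 0.87, after miR-214 with 0.89, and miR-181a at place 5 with 0.53. A shift of all hairpins towards the 5p strand was therefore not seen in these libraries. In 16 of the 57 hairpins the 3p strand was higher in all 6 libraries, and miR-181c was the 1 hairpin in which it was higher in every saline library but not in every ADSC-Exos library. Its strands were close in level, with an estimated 40 3p against 42 5p reads in ADSC-Exos 1 and 29 against 29 in ADSC-Exos 3. Nothing is read from this count, as the family was chosen with this contrast known.

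**Figure D5:**
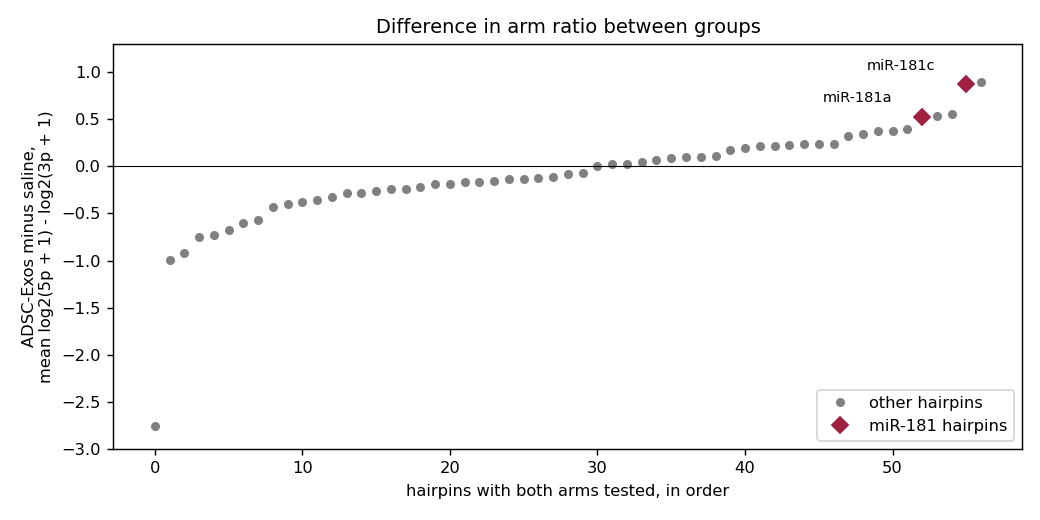
Difference between ADSC-Exos and saline in the mean log2 ratio of the 5p to the 3p strand, with 1 CPM added to each (y axis), for the 57 hairpins with both strands tested, in order (x axis). The red diamonds mark miR-181c, at 0.87, and miR-181a, at 0.53, both near the upper end.

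The ratio of miR-181a-5p to miR-181c-5p, paralogues with a common seed, was 19.7, 16.2 and 16.1 in saline. In ADSC-Exos 1 and 2 it was 18.3 and 19.0, and in ADSC-Exos 3 48.4. ADSC-Exos 1 and 2 thus stood within the saline range and ADSC-Exos 3 above it. The ratio of miR-181a-3p to miR-181a-2-3p, which sets both miR-181a genes side by side, was 4.91, 5.74 and 7.39 in saline and 9.63, 2.88 and 3.92 in ADSC-Exos 1, 2 and 3. ADSC-Exos 1 was above and ADSC-Exos 2 and 3 below every saline library, and this ratio was chosen after the values were seen. It rests on few reads, as miR-181a-2-3p had an estimated 14 in ADSC-Exos 1 and 18 in saline 3. Their counting intervals for this strand, 3.39 to 10.4 and 2.73 to 7.27 CPM, overlapped.

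The likeness of the members over the 6 libraries is described by the Pearson correlation of log2(CPM + 1) with no test, as the libraries share the group difference and their scaling. miR-181a-5p and miR-181b-5p, whose genes lie in the same pairs, had 0.93. miR-181d-5p, from another pair, had 0.91 with miR-181b-5p and 0.84 with miR-181a-5p. miR-181d-5p and miR-181c-5p, whose genes are neighbours, had 0.27. miR-181a-3p had 0.82 with miR-181c-5p, 0.80 with miR-181c-3p and 0.79 with its own partner miR-181a-5p, and 0.69 with miR-181d-5p and 0.62 with miR-181b-5p. The partner strands miR-181c-3p and miR-181c-5p also had 0.79. The 5p strands are similar in sequence, and since no source says how shared reads were counted, their separate values are uncertain to that extent.

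Outside the family, the miRNAs most like miR-181a-5p among 223 compared were miR-20a-5p, at 0.94, and miR-96-5p, at 0.93. For miR-181b-5p and miR-181d-5p this was miR-125b-2-3p, at 0.96 and 0.90, followed for miR-181d-5p by miR-106b-5p at 0.89. For miR-181a-3p the closest were miR-340-5p, miR-6529-5p and miR-500-3p, at 0.97, 0.96 and 0.96. For miR-181c-5p they were miR-744-5p at 0.99, miR-323a-3p at 0.98 and the keratinocyte miRNA miR-205-5p at 0.96. miR-205-5p was at 1083 CPM in ADSC-Exos 3 and at 2331 to 5017 CPM in the other libraries, so both were lowest in the same library.

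For miR-181c-3p the most alike were miR-451-5p at 0.94, miR-500-3p at 0.92 and miR-486-5p at 0.90. miR-451-5p and miR-486-5p are miRNAs of red blood cells. All 4 tested rows of the erythroid markers, of 5 in the table, were lower after ADSC-Exos by mean, with a median log2 difference of -1.49, and none of the rows was at 0 in all libraries. Their summed level was 443, 563 and 853 CPM in saline and 471.5, 154 and 109 CPM in ADSC-Exos 1, 2 and 3. ADSC-Exos 2 and 3 were thus low for the markers as for miR-181c-3p, whereas within saline the orders were opposite, with saline 1 highest for miR-181c-3p and lowest for the markers. The part of red blood cells in the level of miR-181c-3p was not tested, and in bulk tissue fewer cells of a type and less RNA per cell cannot be told apart.

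Leukocyte markers, of interest because of the known role of miR-181a in lymphocytes, had 6 tested of 7 rows and a summed level of 4736 to 5319 CPM in saline and 3870 to 4799 CPM after ADSC-Exos. Of the wider lymphoid and myeloid group, 9 of 13 rows were tested, with 3 higher, 6 lower and 0 called and a median log2 difference of -0.26, which was -0.59 without saline 1 and -0.099 without saline 2. Over all miRNAs tested there were 88 higher and 136 lower, and the median was -0.082. Its most abundant rows were miR-146a-5p, a restraint on inflammatory signalling, at -0.26 ± 0.38, and miR-155-5p, induced in activated immune cells, at 0.21 ± 0.41 (SE).

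The neighbouring gene of miR-181c and miR-181d was represented by miR-24. miR-24-2-5p, a strand of MIR24-2, read 202.4, 282.2 and 274.3 CPM in saline against 307.9, 267.8 and 195.8 CPM after ADSC-Exos, a log2 difference of 0.01 ± 0.31 (SE). ADSC-Exos 2, low for miR-181c-3p, lay within the saline range here, and ADSC-Exos 3 just below it. miR-24-3p, the principal strand of the miR-24 genes, had a log2 difference of -0.16 ± 0.25 (SE). miR-23a and miR-27a had no row under these names and so could not be analysed.

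Of the myogenic group, 3 of 8 rows were tested, all lower and 0 called, with a median of -0.70. It includes the muscle miRNA miR-1-3p at -0.33 ± 0.48 and miR-206-3p at -4.24 ± 1.10 (SE). miR-206-3p read 131.5, 145.8 and 4.6 CPM in saline 1, 2 and 3 and 1.8, 1.6 and 1.2 CPM after ADSC-Exos. Its difference thus came from saline 1 and 2, and saline 3 stood near the treated libraries. Of miRNAs related to TGF-β, the growth factor named in the series title, 17 of 22 rows were tested, with 13 higher, 4 lower and 0 called and a median of 0.30. Its most abundant rows were miR-199a-3p at -0.01 ± 0.24 and miR-21-5p at 0.56 ± 0.36 (SE). The sign of miR-199a-3p is not read, as its difference is well within its error. Among markers of other tissues, cartilage had 4 of 4 rows higher by mean, with summed levels of 2110 to 4652 CPM in saline and 1461, 7602 and 6046 CPM in ADSC-Exos 1, 2 and 3. Smooth muscle had 4 of 4 rows lower by mean, at 38229 to 70397 CPM in saline and 14505 to 67009 CPM after ADSC-Exos. Skeletal muscle had 3 of 5 rows tested, at 1453 to 2134 CPM in saline and 609 to 2375 CPM after ADSC-Exos, and epithelium 6 of 6 rows, at 8140 to 11335 and 7913 to 12297 CPM. Only 3 of the 7 miRNA names chosen for epithelium and 11 of the 16 chosen for TGF-β had rows. Without ADSC-Exos 1 the medians of the myogenic and smooth muscle rows were 0.080 and 0.15, and without ADSC-Exos 2 that of the cartilage rows was -0.17. The part of these tissues in the levels of the family was not tested.

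Within groups, miR-181a-5p varied by a pooled SD of 0.38 on the log2(CPM + 1) scale, below the median of 0.46 over all 224 miRNAs tested. The other 5 tested members varied more than that median, up to 0.68 for miR-181a-3p, and miR-181c-3p was at 0.60.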

How the data were processed

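Small RNA libraries of 6 scar samples, 3 saline and 3 ADSC-Exos, were read on a NovaSeq 6000 (Illumina), as the design text says. The authors deposited 1 table of 467 mature miRNAs in CPM, matched here to samples by the sample code in the labels. Per the submitters' processing notes, which give neither role nor order, the tools were STAR 2.7.6a, HTSeq 2.0.3, DESeq2 1.30.1, Trimmomatic 0.40 and FastQC 1.0.0. The build, the annotation and the strand setting were not given in the sources used here. Scaling by the library total makes each miRNA relative to all the others.

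The 224 miRNAs whose mean reached 10 CPM were fitted with limma-trend 3.58.1 (R 4.3.3) on log2(CPM + 1), with group as the only term, two-sided, and Benjamini-Hochberg adjustment over all 224. This scale understates differences of low miRNAs. The fit was tested on simulated data. Read totals were estimated as the number for which values under 100 CPM fall on multiples of a single read, within 0.05 CPM and with the lowest value as 1 read. This held for 99.3% to 100% of them, where 22.6% to 51.0% of arbitrary values would. Rounding leaves these totals estimates, so no count test was run. Intervals are two-sided exact Poisson or Clopper-Pearson intervals at 95%, and a count of 0 is given the upper limit of 3 reads in place of an interval.

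Members, lists and tests were chosen with earlier results of these data known. Named are all rows of the family, the 3 most correlated tested miRNAs of each tested member, the tested neighbours of miR-181c and miR-181d, the 2 most abundant rows of each other list and the 2 miRNAs on either side of miR-181c-3p in the order of differences. miR-214 and let-7b were named after their values were seen. No mature sequences were at hand, so none is printed and rows sharing the seed were not sought.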

Additional observations from a re-analysis of the deposited data

How the results depend on the processing

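No tested member of the family was called under any alternative run. The log2 difference of miR-181c-3p was -0.82 with a pseudocount of 10, -1.45 with one of 0.1, -1.29 with median-of-ratios scaling, -1.36 with quantile scaling and -1.81 (without ADSC-Exos 1) to -1.07 (without ADSC-Exos 3) when a library was left out. A mean of at least 100 CPM leaves miR-181a-5p alone of the family. The count of 0 miRNAs called over the table became 1 without saline 3 (miR-206-3p) and 4 without ADSC-Exos 1 (miR-144-3p, miR-194-3p, miR-451-5p and miR-486-5p), a range of 0 to 4. With the replicate number as a block it was 0, and in this balanced design the block leaves the differences as they are. Same-numbered libraries had correlations of their deviations of -0.11, -0.018 and -0.13, and differently numbered ones of -0.24 to 0.24. With 3 libraries in each group, these values cannot decide whether the numbers pair the libraries. The planned limma-voom and edgeR fits to reads were not run.

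With a library left out, miR-181a-3p ran from -0.89 (without ADSC-Exos 1) to -0.11 (without saline 1), and miR-181c-5p was at -0.035 without ADSC-Exos 3. miR-181a-5p (-0.10 to 0.33), miR-181b-5p (-0.18 to 0.41), miR-181d-5p (-0.49 to 0.14) and the family sum (-0.24 to 0.22) took either sign. The arm ratio difference of miR-181c was 0.60 to 1.03 (0.56 with a pseudocount of 10), that of miR-181a 0.32 (without ADSC-Exos 3) to 0.81 (without ADSC-Exos 1) and that of miR-181b 0.092 (without ADSC-Exos 3) to 1.23 (without ADSC-Exos 1). The log2 ratio of miR-181a-5p to miR-181c-5p differed by 0.52, and by 0.11 without ADSC-Exos 3. Depth limits what can be said of miR-181b-2-3p and miR-181d-3p, with at most 11 and 4 estimated reads.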
